A study of Mus musculus with 6 samples.

Results

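Fat1 and Wnk1 are 2 long genes in which cleavage and polyadenylation were followed along the transcribed strand in mouse embryonic stem cells. They were picked for a difference in early cleavage when U1 was inhibited by an antisense morpholino oligonucleotide (AMO). Levels with that AMO, and their difference from a control AMO, are therefore given as a description with no test. Members were the cleavage positions on the gene's strand in a fixed window of 120 kb for Fat1 and about the same length for Wnk1 in the build mm9. The positions found span chr8:46021195-46137895 on the plus strand (Fat1) and chr6:119873928-119988994 on the minus strand (Wnk1). Neighbouring positions were pooled into a cluster where gaps did not exceed 24 nt. This gave 105 clusters for Fat1 and 157 for Wnk1, of 931826 clusters in the whole series.

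All cells were of the V6.5 line, an embryonic stem cell line of mixed C57BL/6 and 129 background, grown under standard conditions. There were 3 groups of 2 libraries: untreated cells, cells given a scrambled AMO and cells given a U1-targeting AMO, with no genetic change named in any group. Series text calls the 2 libraries of each group biological replicates, and no source used here says more of how the cultures were separated. The p-values thus measure the spread between these libraries, which may be partly technical. The AMO conditions are given in the labels only by reference to an earlier protocol, with no dose or time. No mm9 gene annotation was used here, so neither the stem cell markers nor the exon or intron of each position were checked.

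U1 is the small nuclear ribonucleoprotein that binds 5′ splice sites. It is also known to protect nascent transcripts from cleavage at polyadenylation signals inside the gene, a role that matters most for long genes with long introns. Cleavage normally follows a hexamer of the type AATAAA, and a transcript cut early ends before its last exons. Fat1 encodes a giant protocadherin, a transmembrane protein with many cadherin repeats that acts in cell contact, polarity and Hippo signalling. Wnk1 encodes a serine/threonine kinase named for the unusual place of its catalytic lysine, and it acts through the kinases Oxsr1 and Stk39 on cation-chloride cotransporters.

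The full 3′ end of each gene was taken as the cluster with the highest mean level in untreated libraries within the last 10 kb of the window. It lay at chr8:46137585-46137630 for Fat1 and at chr6:119873982-119874010 for Wnk1. Clusters more than 5 kb upstream of it are called premature, of which Fat1 had 96 and Wnk1 144. Levels are in CPM, the reads of a cluster after its library is scaled to a total of 1000000 reads.

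The hexamers that the deposited lists give for the strongest position of the full ends, of the proximal 3′ end of Wnk1 and of the 6 strongest premature clusters of each gene are shown first, because the clusters are described by them. They are written 5′ to 3′ in the sense of the transcript, capitals mark bases that differ from AATAAA, and distances are from the full 3′ end.
Fat1, 115.7 kb upstream: aatGaa
Fat1, 114.8 kb upstream: aTtaaa
Fat1, 114.6 kb upstream: aGtaaa
Fat1, 111.4 kb upstream: aataaa
Fat1, 107.0 kb upstream: aataaa
Fat1, 94.7 kb upstream: aTtaaa
Fat1, full 3′ end: aataaa
Wnk1, 112.3 kb upstream: aataaa
Wnk1, 111.2 kb upstream: aataaa
Wnk1, 78.0 kb upstream: aataaa
Wnk1, 77.7 kb upstream: Gataaa
Wnk1, 26.6 kb upstream: aataGa
Wnk1, 10.9 kb upstream: aataaa
Wnk1, proximal 3′ end, 1.58 kb upstream: aataaa
Wnk1, full 3′ end: aataaa
Both full ends thus carried the canonical signal. Among the strongest premature clusters it stood at 2 of 6 in Fat1 and at 4 of 6 in Wnk1. The strongest premature cluster of Fat1 had the second commonest signal, ATTAAA, and the next in level had AATGAA.

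The libraries held 15752080 to 62257923 reads, and U1 AMO replicate 1 was the shallowest. No molecular identifiers are described, so that every interval or floor covers the error of counting alone. Read names place replicate 1 of both AMO groups in the same run and lane, and replicate 2 of both groups in another run and separate lanes. The untreated libraries had separate runs, so for untreated cells run and treatment cannot be told apart. Values of the AMO groups are therefore also given within each run.

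Under the U1 AMO a large share of Fat1 transcripts ended early. The premature share is the reads of premature clusters over those reads plus the reads of the full 3′ end. In untreated libraries it was 2.75% (95% Wilson interval 2.09 to 3.62) in replicate 1 and 0.750% (0.574 to 0.980) in replicate 2. In scrambled AMO libraries it was 2.25% (1.73 to 2.92) and 4.53% (3.74 to 5.48). Under the U1 AMO it was 33.0% (31.3 to 34.7) and 55.0% (53.8 to 56.1). Both U1 AMO libraries thus lay far above all 4 control libraries, and they also differed from each other by more than their intervals.

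The mean premature share of Fat1 was 44.0% ± 15.6 under the U1 AMO, 3.39% ± 1.62 in scrambled AMO libraries and 1.75% ± 1.42 in untreated libraries (SD, n = 2). Run by run, the share under the U1 AMO exceeded that of the scrambled AMO by 30.7 and 50.4 percentage points. Without the strongest premature cluster the shares were 17.0% and 26.2% under the U1 AMO against 1.52% and 2.50% in scrambled AMO libraries, so the other premature clusters showed the same order. Shares and levels describe a population of cells, in which fewer cells with a transcript and fewer transcripts per cell cannot be told apart.

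In Wnk1 the premature share was smaller but had the same order. It was 0.566% (0.440 to 0.727) and 0.451% (0.354 to 0.575) in untreated libraries, and 2.26% (1.89 to 2.69) and 1.82% (1.57 to 2.12) in scrambled AMO libraries. Under the U1 AMO it was 13.6% (12.4 to 14.8) and 10.8% (10.2 to 11.5). Means were 12.2% ± 1.96, 2.04% ± 0.307 and 0.508% ± 0.0808 for U1 AMO, scrambled AMO and untreated cells (SD, n = 2). The U1 AMO share exceeded that of the scrambled AMO by 11.3 and 8.97 points within the runs.

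**Figure D1:**
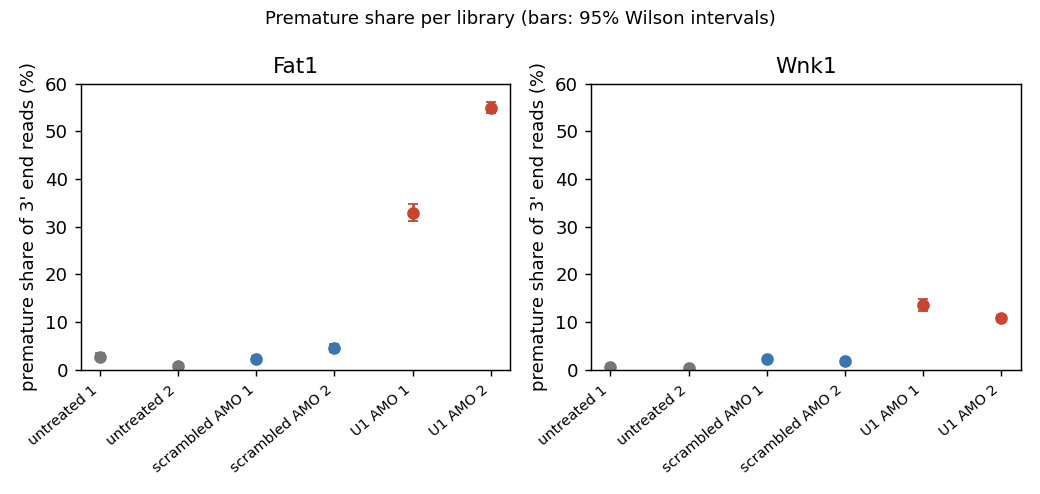
Premature share of 3′ end reads (percent, y axis) in each of the 6 libraries for Fat1 (left) and Wnk1 (right); points are libraries and bars 95% Wilson intervals. The U1 AMO points of Fat1 stand at 33.0% and 55.0% and those of Wnk1 at 13.6% and 10.8%, above every control library of the same gene.

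The comparison of the scrambled AMO with untreated cells was not used to pick the genes and could be tested. For Fat1 the premature share was higher by 1.64 points in scrambled AMO libraries (exact permutation test over libraries, two-sided, p = 0.667), and the groups overlapped. For Wnk1 it was higher by 1.53 points and both scrambled AMO libraries lay above both untreated ones (exact permutation p = 0.33). That is the smallest p that 2 libraries against 2 can give, so the design cannot reach the threshold of 0.05.

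At Fat1 the premature reads were higher under the U1 AMO, and the levels of the full 3′ end overlapped between the groups. Summed premature reads of Fat1 reached 60.2 and 66.5 CPM under the U1 AMO, against 2.05 and 1.61 in scrambled AMO libraries and 1.27 and 0.876 in untreated libraries. The U1 AMO level was 29.4 and 41.4 times that of the scrambled AMO within the runs. The full 3′ end of Fat1 had 122.5 and 54.5 CPM under the U1 AMO, 89.1 and 33.8 in scrambled AMO libraries and 44.9 and 116.0 in untreated libraries. Within both runs the U1 AMO level of this end was the higher, 1.37 and 1.61 times that of the scrambled AMO.

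In edgeR the log2 fold change of the full Fat1 end for U1 AMO against scrambled AMO was 0.50 ± 0.60 (SE). When only the AMO libraries were fitted with run as a block it was 0.55 ± 0.15 (SE). Leaving out 1 library moved the value from 0.019, without U1 AMO replicate 1, to 1.23, without scrambled AMO replicate 1, with 0.047 without scrambled AMO replicate 2 and 0.97 without U1 AMO replicate 2. This contrast is the one the genes were picked on, so these values only describe it. For scrambled AMO against untreated the log2 fold change was -0.42 ± 0.60 (SE, adjusted p = 0.823 in edgeR), which did not pass the test. Leaving out untreated replicate 2 or scrambled AMO replicate 2 turned it to 0.34 and 0.06.

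At Wnk1 the premature reads were higher under the U1 AMO, at 26.0 and 16.4 CPM, against 4.43 and 2.67 in scrambled AMO libraries and 1.56 and 1.07 in untreated libraries. The ratios within the runs were 5.87 and 6.15. The full 3′ end of Wnk1 had 273.5 and 237.1 CPM in untreated libraries, 192.1 and 143.7 in scrambled AMO libraries and 165.8 and 135.5 under the U1 AMO. Both AMO groups were below both untreated libraries, and within the runs the U1 AMO level was 0.863 and 0.943 times that of the scrambled AMO. In edgeR the log2 fold change was -0.17 ± 0.30 for U1 AMO against scrambled AMO (SE). It was -0.65 ± 0.30 for scrambled AMO against untreated (SE, adjusted p = 0.411 in edgeR), which did not pass the test, and -0.83 ± 0.30 for U1 AMO against untreated (SE), given as a description.

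Wnk1 also ended at a proximal cluster 1581 nt upstream of the full end, chr6:119875533-119875583. Its levels were 28.8 and 59.1 CPM in untreated libraries, 36.8 and 34.3 in scrambled AMO libraries and 29.5 and 28.1 under the U1 AMO. Of the reads at the full end and at the clusters up to 5 kb upstream of it, these upstream clusters together took 9.71% and 20.1% in untreated libraries, 16.6% and 19.5% in scrambled AMO libraries and 15.8% and 17.7% under the U1 AMO. The untreated libraries spanned the values of both AMO groups, so the groups overlapped in the use of these neighbouring ends (scrambled AMO against untreated, exact permutation p = 1). In Fat1 the same stretch held no cluster with a group mean of 1 CPM other than the full end.

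Premature cleavage of Fat1 under the U1 AMO was concentrated far from the 3′ end. Distances are again upstream of the full end, so the largest are nearest to the 5′ side. The stretch from 80 to 120 kb held 96.4% and 96.8% of premature reads in the U1 AMO libraries. It also held 60% and 67% of the 55 and 100 premature reads in scrambled AMO libraries. In untreated libraries it held 46.9% and 66.0% of 49 and 53. In CPM, the 80 to 100 kb stretch had 38.2 and 51.5 under the U1 AMO, 0.745 and 0.851 in scrambled AMO libraries and 0.467 and 0.579 in untreated libraries. The 100 to 120 kb stretch had 19.9 and 12.9 CPM against 0.484 and 0.225 in scrambled AMO libraries. Nearer to the end the groups lay closer together: from 20 kb to the 5 kb limit the U1 AMO libraries had 0.381 and 0.691 CPM and the scrambled AMO libraries 0.335 and 0.305. Within the runs the ratios there were 1.14 and 2.26, from 6 and 40 reads under the U1 AMO against 9 and 19.

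In Wnk1 most premature reads lay in 3 separate stretches. Under the U1 AMO, 29.5% and 20% of them fell 100 to 120 kb upstream of the full end, 34.1% and 36.4% at 60 to 80 kb, and 19.8% and 26.6% at 20 to 40 kb. The U1 AMO level of the 60 to 80 kb stretch was 8.89 and 5.97 CPM, against 0.223 and 0.0803 in scrambled AMO libraries. At 100 to 120 kb the levels were 7.68 and 3.28 CPM against 0.0372 and 0.0803. At 20 to 40 kb the ratio was 1.64 and 2.39 within the runs, where 3.13 and 1.83 CPM had been reached in scrambled AMO libraries. Of the 84 and 114 scrambled AMO reads there, 60 and 68 came from a single cluster, 26.6 kb upstream and described below. That cluster had 16 and 99 of the 81 and 253 reads under the U1 AMO, so the other clusters together had a higher ratio. No test was made of the difference between the genes.

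**Figure D2:**
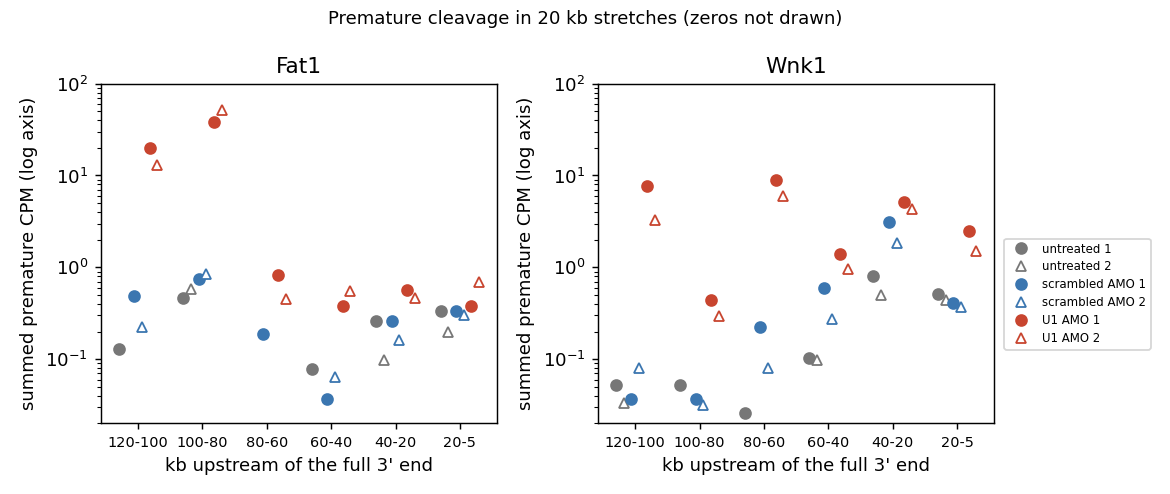
Summed premature CPM (log y axis) in stretches of 20 kb, ordered from the 5′ side on the left, for Fat1 and Wnk1; each point is a library and zeros are not drawn. The U1 AMO points of Fat1 reach 38.2 and 51.5 CPM at 80 to 100 kb and come close to the controls in the last stretch, and those of Wnk1 peak at 60 to 80 kb with 8.89 and 5.97 CPM.

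A single cluster made most of the Fat1 pattern. It lay at chr8:46042913-46042950, 94.7 kb upstream of the full end, and had 12 and 34 reads in untreated libraries, 18 and 46 in scrambled AMO libraries and 553 and 2732 under the U1 AMO. In CPM these are 0.311 and 0.562, 0.670 and 0.739, and 35.1 and 47.2. Pooled over libraries the U1 AMO level was 62.1 times that of the scrambled AMO (95% counting interval 48.5 to 80.8), and 52.4 and 63.8 times within the runs. The cluster was thus used at a low level in all 4 control libraries, and it took 58.3% and 70.9% of the premature reads under the U1 AMO. Scrambled AMO against untreated gave a log2 fold change of 0.67 ± 0.42 (SE, adjusted p = 0.546 in edgeR), which did not pass the test.

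Cleavage inside this cluster was spread over neighbouring positions. The position listed 18 nt from the ATTAAA hexamer was the most used in both scrambled AMO libraries, with 44.4% (Wilson interval 24.6 to 66.3) and 50% (36.1 to 63.9) of the reads of the cluster, and in both U1 AMO libraries, with 45.4% (41.3 to 49.6) and 40.4% (38.6 to 42.3). In untreated libraries the most used positions lay 6 nt downstream and 1 nt upstream of it, from only 12 and 34 reads. Within 5 nt of it fell 89.7% and 89.5% of reads under the U1 AMO and 77.8% and 89.1% in scrambled AMO libraries.

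**Figure D3:**
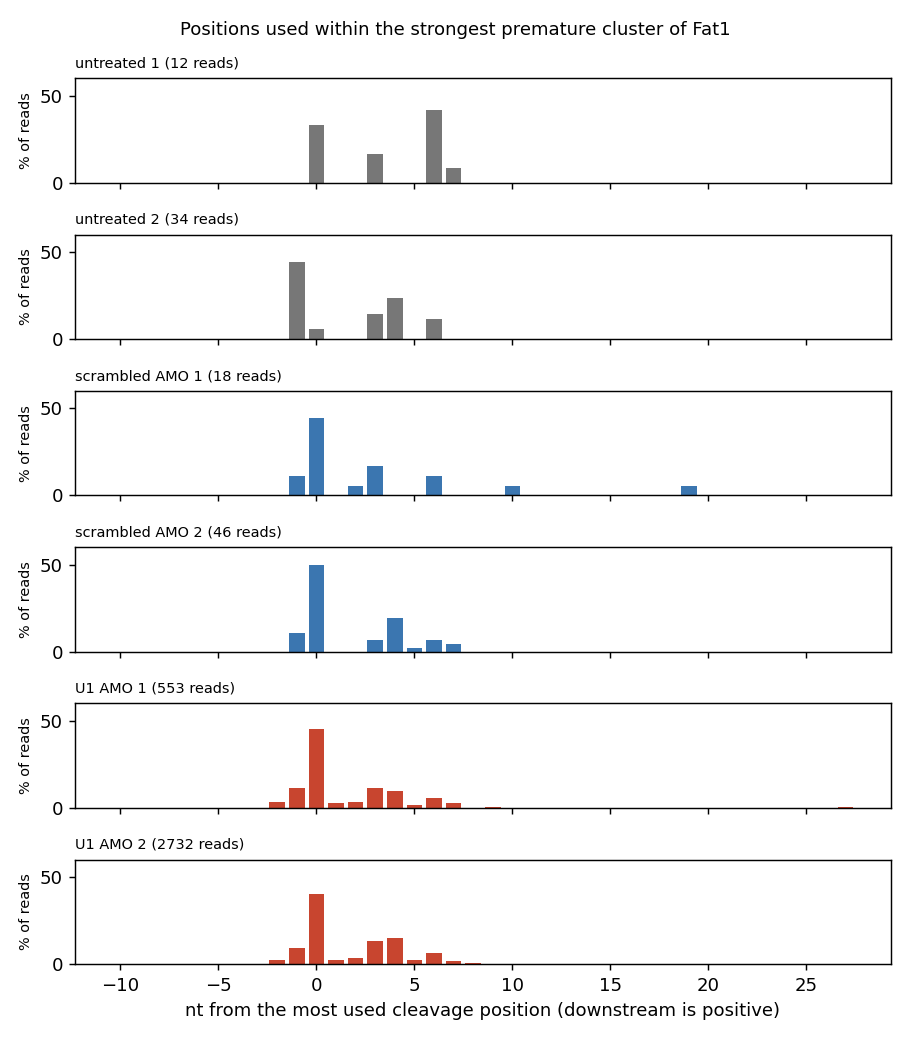
Share of reads (percent, y axis) at each position of the strongest premature cluster of Fat1, by distance in nt from its most used position, with 1 panel per library. The tallest bar is at 0 in both scrambled AMO and both U1 AMO libraries, at 44.4%, 50%, 45.4% and 40.4%, and the untreated panels rest on 12 and 34 reads.

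The full 3′ end of Fat1 had 2 preferred positions 11 nt apart, whose order varied by library. The downstream position was the most used in 5 of 6 libraries, with 28.8% to 41.4% of reads, and scrambled AMO replicate 1 had 30.4% at the upstream one. At the full end of Wnk1 the same position was the most used in all 6 libraries, with 43.1% to 72.9% of reads. At least 99.5% of its reads lay within 5 nt of that position in every library. At both ends the range of the scrambled AMO libraries overlapped those of the other two groups.

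The cluster next in level lay at chr8:46021842-46021893, close to the 5′ edge of the window. It had no reads in untreated libraries, 2 and 3 in scrambled AMO libraries and 191 and 358 under the U1 AMO, or 12.1 and 6.18 CPM. Pooled, U1 AMO over scrambled AMO gave a ratio of 133 (56.6 to 411). It is wide, at 52 nt and 31 positions, and its listed signal, AATGAA, lies 39 nt away. The next clusters downstream, at chr8:46022766-46022776 and chr8:46022984-46022991, reached 0.856 ± 0.405 and 1.63 ± 0.476 CPM under the U1 AMO against 0.0986 ± 0.0713 and 0.152 ± 0.101 in scrambled AMO libraries (SD, n = 2).

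Both of these had lower ratios, 8.81 (3.98 to 23.0) and 11.7 (6.26 to 24.1), with 51 and 106 reads under the U1 AMO against 7 and 11 in scrambled AMO libraries. At chr8:46026184-46026204 16 and 49 reads came from the U1 AMO libraries and 0 from the 4 control libraries. With the floor set at 3 counts over both scrambled AMO libraries, the level was at least 26.2-fold higher. At chr8:46030598-46030623 there were 24 and 142 reads against 0 and 3, a ratio of 66.9 (22.5 to 328). The first 5 of the named clusters from the 5′ side thus lay between 107.0 and 115.7 kb upstream of the full end, ahead of the strongest at 94.7 kb.

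**Figure D4:**
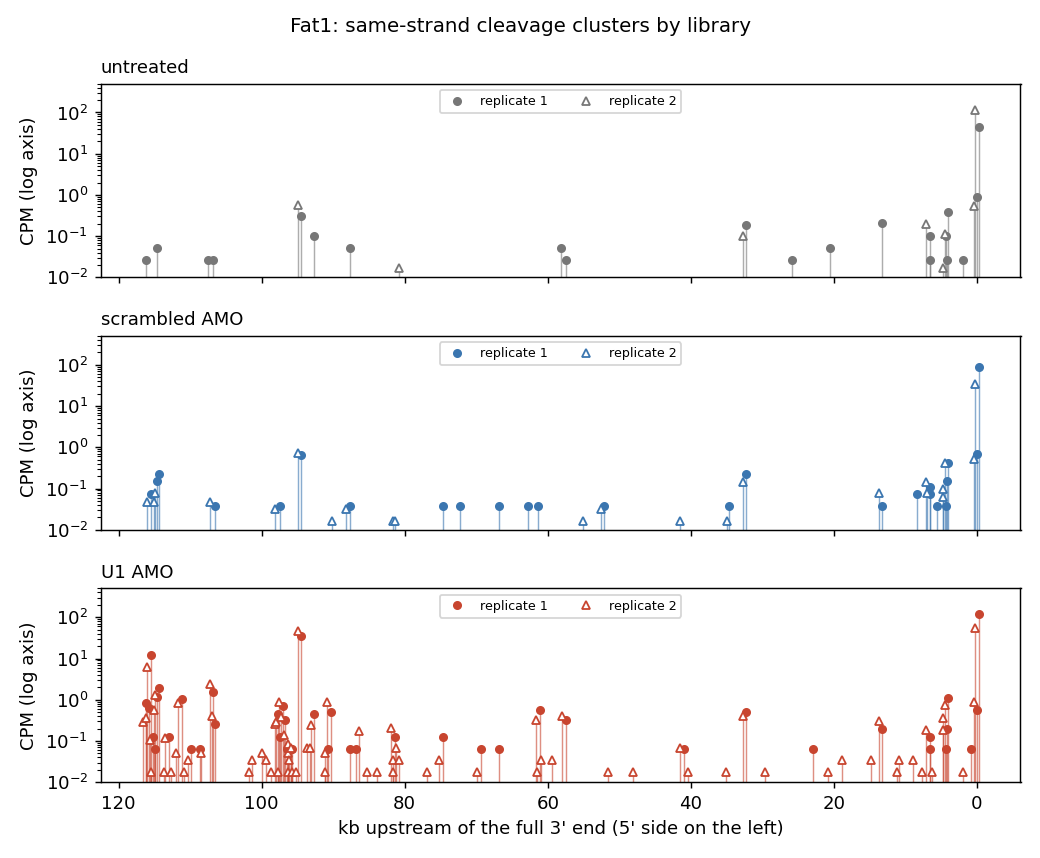
Level of every same-strand cluster of Fat1 (CPM, log y axis) by its distance in kb upstream of the full 3′ end, with a panel per group; circles are replicate 1, triangles replicate 2, and clusters without reads are not drawn. The U1 AMO panel has a dense set of clusters beyond 80 kb, led by the one at 94.7 kb with 35.1 and 47.2 CPM, where the control panels have few.

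Wnk1 had no premature cluster of comparable weight. The strongest took 16.1% and 12.6% of its premature reads under the U1 AMO, and 7 and 6 clusters were needed to reach 50% of them, against 1 in Fat1. To reach 90% took 33 and 37 clusters in Wnk1 and 8 in each U1 AMO library of Fat1. Early cleavage was thus spread over more places in Wnk1 than in Fat1 in these libraries.

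The strongest, chr6:119986293-119986305, lay 112.3 kb upstream of the full end. It had 66 and 120 reads under the U1 AMO, or 4.19 and 2.07 CPM, and none in the 4 control libraries. Its level was at least 75.0-fold higher than in scrambled AMO libraries, with the same floor. Just downstream, chr6:119985207-119985216 had 26 and 17 reads under the U1 AMO and 0 and 2 in scrambled AMO libraries, a ratio of 26.0 (6.77 to 221.6) that rests on those 2 reads. Its CPM of 1.65 and 0.293 differed between the U1 AMO libraries by a larger factor than at the other named premature clusters of Wnk1.

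A pair of neighbouring clusters lay on the 5′ side of the middle of the window. The cluster at chr6:119952006-119952018 had 41 and 112 reads under the U1 AMO and 1 and 0 in scrambled AMO libraries, a ratio of 185 (32.7 to 7356) that rests on 1 read. Its interval is too wide to rank it against the lower bounds of clusters with no such read. The cluster at chr6:119951702-119951713 had 25 and 42 reads, at least 27.0-fold higher, since no control library had any. Both followed signals within 20 nt, AATAAA in the first and GATAAA in the second.

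The cluster at chr6:119900632-119900643, 26.6 kb upstream of the full end of Wnk1, did not follow the others. It had 10 and 0 reads in untreated libraries, 60 and 68 in scrambled AMO libraries and 16 and 99 under the U1 AMO. In CPM the AMO libraries had 2.23 and 1.09 (scrambled) and 1.02 and 1.71 (U1), which overlap. Run by run, U1 AMO over scrambled AMO gave 0.454 and 1.56, in opposite directions. Scrambled AMO against untreated gave a log2 fold change of 3.66 ± 1.35 (SE), with an adjusted p of 0.331 in edgeR, so this difference did not pass the test. Without untreated replicate 1, the one with reads there, the log2 fold change was 9.19, and without untreated replicate 2 it was 2.56. Over the alternatives its adjusted p ran from 0.00794, in edgeR with no filter on low counts, to 0.810, in edgeR with scrambled AMO replicate 1 left out. Its signal was AATAGA, listed 35 nt away.

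Nearest to the 3′ side, chr6:119884836-119884869 had 1.71 and 1.10 CPM under the U1 AMO, 0.223 and 0.193 in scrambled AMO libraries and 0.311 and 0.0496 in untreated libraries. U1 AMO over scrambled AMO gave 6.11 (3.66 to 10.8). It was used in all 6 libraries, as was the strongest premature cluster of Fat1.

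**Figure D5:**
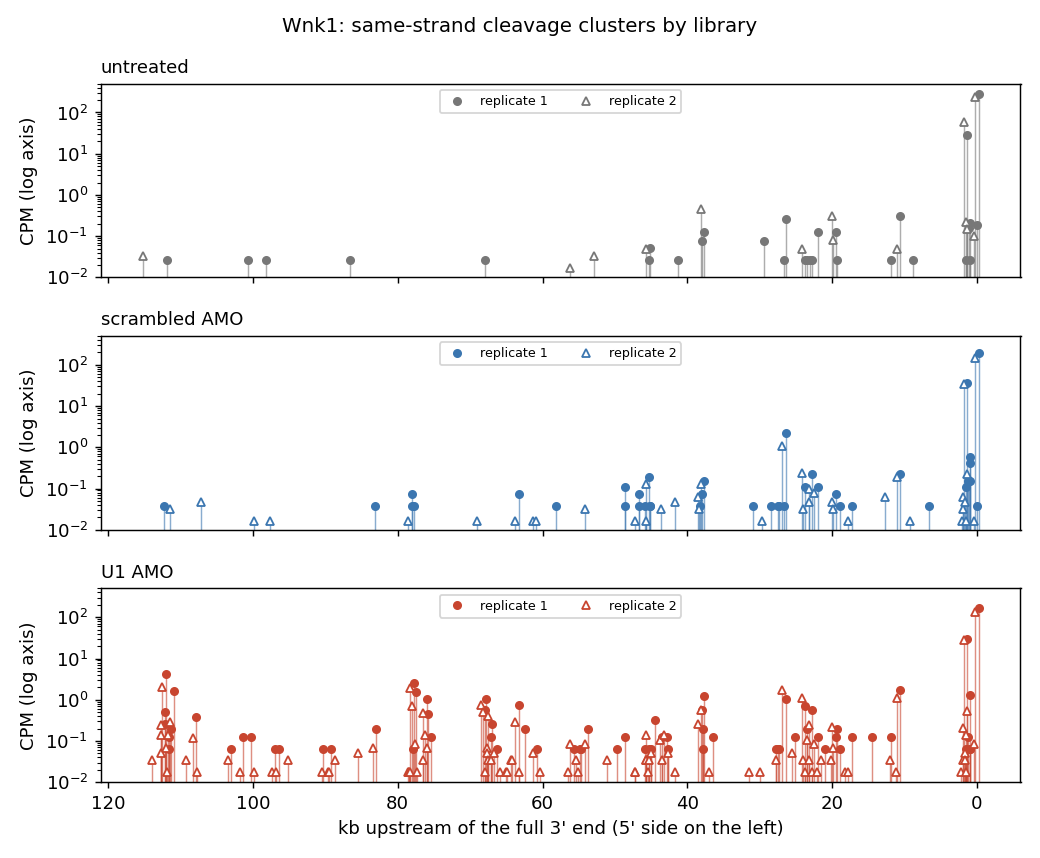
Level of every same-strand cluster of Wnk1 (CPM, log y axis) by its distance in kb upstream of the full 3′ end, with a panel per group; circles are replicate 1, triangles replicate 2, and clusters without reads are not drawn. U1 AMO clusters stand out near 112 kb, near 78 kb and near 68 kb, and the cluster at 26.6 kb is as high in scrambled AMO libraries as under the U1 AMO.

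Most premature clusters were small. Of the 96 in Fat1, 60 had at most 3 reads over the 6 libraries and 20 had at least 20, and of the 144 in Wnk1, 94 and 19. Reads from U1 AMO libraries were found at 81 clusters of Fat1 and 118 of Wnk1, from scrambled AMO libraries at 28 and 49, and from untreated libraries at 16 and 27. In Fat1 60 clusters had reads under the U1 AMO alone, 17 of them in both libraries, and in Wnk1 83 and 26. Over the whole series, clusters with a read numbered 235486 and 461561 in U1 AMO libraries and 287375 and 416788 in scrambled AMO libraries. Untreated libraries had 268396 and 213754. The share of all clusters with reads under the U1 AMO alone was not computed, so nothing is read from these counts. Apart from the named clusters, no premature cluster of Fat1 had a U1 AMO mean above 0.798 CPM and none of Wnk1 above 0.910. At the limit between premature and near-end clusters, the nearest premature cluster was 5820 nt upstream in Fat1 and 6845 nt in Wnk1, with 1 read each, and the farthest near-end ones were 4535 and 1954 nt upstream, with 21 and 1 reads.

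Both U1 AMO libraries lay above both scrambled AMO libraries at 30 of the 96 clusters in Fat1 and at 41 of the 144 in Wnk1, and below both at 2 in each gene. Over all clusters of the series 6.53% lay above in this way and 4.54% below. Since the genes were picked on this contrast, nothing is read from these counts. For scrambled AMO against untreated, 5 clusters of Fat1 and 8 of Wnk1 lay above, where the share over all clusters was 7.54%, and 0 and 1 lay below, where it was 3.28%. Of these clusters, 60 of the 96 in Fat1 and 83 of the 144 in Wnk1 had reads under the U1 AMO alone. Those could lie neither above nor below in that comparison, so nothing is read from these counts either.

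For scrambled AMO against untreated few premature clusters could be tested. On those 4 libraries alone, 1 cluster of Fat1 (94.7 kb upstream) and 2 of Wnk1 (26.6 and 10.9 kb upstream) passed the filter on low counts. None was called by edgeR, which called 0% of 63960 clusters in either direction there (6119 at an unadjusted p under 0.05). With all 6 libraries 18 and 17 entered the test, most of them through reads of the U1 AMO group, so that the lack of a call among them says little. In that fit too edgeR called 0% of 80049 clusters (10490 at an unadjusted p under 0.05), and DESeq2 called no member, where it called 1.71% of all clusters higher and 1.02% lower. With no filter on low counts edgeR called 1 member higher, the Wnk1 cluster 26.6 kb upstream, where 0.118% of all clusters were called higher and 0.0192% lower.

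Features that the choice of genes did not use were also described. Among premature clusters with at least 20 reads over the 6 libraries, AATAAA stood at the strongest position of 8 of 20 in Fat1 and of 12 of 19 in Wnk1. Over both genes this is 51.3% of 39, against 47.0% of 109620 such clusters outside chromosome M. ATTAAA stood at 4 of 20 and 1 of 19, or 12.8% against 16.1%. The median distance from hexamer to cleavage was 24 nt in Fat1 and 22 nt in Wnk1, against 21 nt in all clusters. Median widths were 17, 13 and 15 nt. Most of these 39 clusters reached that depth only with their U1 AMO reads, and the genes differed from each other (AATAAA at 40% in Fat1 and 63.2% in Wnk1), so the values are given as a description with no test.

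Cleavage on the opposite strand was sparse inside both genes. The Fat1 window had 3 and 1 reads there in untreated libraries, 2 and 9 in scrambled AMO libraries and 3 and 13 under the U1 AMO, over 20 clusters. The highest of these was at chr8:46020999-46021010, near the 5′ edge, with 0 and 1 reads in the scrambled AMO and 1 and 2 in the U1 AMO libraries, and the other named ones, at chr8:46061760-46061773 and position 46084888, had at most 4 reads in a library. In the Wnk1 window nearly all opposite-strand reads fell in chr6:119872838-119872849, just beyond the full 3′ end, with 37.1 and 12.4 CPM in untreated libraries, 27.7 and 45.2 in scrambled AMO libraries and 26.3 and 35.8 under the U1 AMO. The groups overlapped there. In the assembly GRCm38.p6 of RefSeq, Rad52, which acts in DNA repair by recombination, neighbours Wnk1 on its 3′ side and lies on the opposite strand. Near the 5′ edge of the same window, chr6:119989409-119989426 had 1 and 14 reads in untreated libraries, 7 and 3 in scrambled AMO libraries and 7 and 4 under the U1 AMO, with no order between the groups. At chr6:119873136-119873152 there were 0 and 0 reads, 2 and 1, and 3 and 3 in the same order of groups.

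Set beside other strong 3′ ends of the series, the premature share of Fat1 under the U1 AMO was above most. A share of the same form was computed for 4830 clusters with at least 10 CPM in untreated libraries. These had no other such cluster 5 to 120 kb upstream on the same strand and no stronger one within 5 kb. The stretch up to 120 kb was fixed, whatever the length of the gene. No gene annotation was used, so weaker 3′ ends of other genes can count as premature there. The windows of Fat1 and Wnk1 were set for those genes, so the places below compare unlike stretches. The median share over these ends was 2.71% and 2.32% in untreated libraries, 4.11% and 3.49% in scrambled AMO libraries and 8.15% and 6.84% under the U1 AMO. In untreated libraries 50.4% and 27.2% of the ends had a lower share than Fat1, and 19.2% in replicate 1 and 19.4% in replicate 2 had a lower share than Wnk1. Under the U1 AMO 86.1% and 96.5% were lower than Fat1 and 63.4% and 61.9% lower than Wnk1. For the difference of U1 AMO and scrambled AMO within the runs, 97.3% and 99.7% of ends were lower than Fat1, and 85.2% and 86.5% lower than Wnk1. These places describe genes that were picked for such a difference.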

How the data were processed

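The 3′ ends of poly(A)-selected RNA were sequenced after RNase T1 fragmentation, reverse transcription, circularisation and PCR, per the labels' protocols. Per the submitters' processing notes cutadapt, Bowtie and the build mm9 were used, with no version or filter given in the sources used here. The authors deposited whole-number read counts per stranded cleavage position and library, not normalized. Each deposited position also has a hexamer, its distance (6 to 40 nt) and a score from 0 to 10 of unstated meaning, which was not used.

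The members and settings were chosen with earlier results of these data known. The 2341170 positions were joined at 24 nt into 931826 clusters with scipy 1.17.1, numpy 2.4.6 and pandas 2.3.3 in Python 3.11.15. edgeR 4.0.16 in R 4.3.3 tested clusters by quasi-likelihood (TMM, filterByExpr, all 6 libraries, Benjamini-Hochberg adjustment, threshold 0.05), and DESeq2 1.42.0 was an alternative. SEs were derived from the fold change and F statistic. Named clusters were the full ends, other clusters near the end with a group mean of at least 1 CPM, the 6 strongest premature and the 3 strongest opposite-strand clusters of each gene. All other features described were chosen after their values were seen.

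Replicate numbers of the AMO groups mark shared runs in the read names. Deviations from the group means correlated at r = 0.77 across 30276 clusters, which are not independent replicates. Simulated counts for U1 AMO against scrambled AMO with 80049 clusters gave calls for 0% of 4-fold, 56% of 16-fold and 100% of 64-fold rises. They gave calls for 4% of falls to 0.25-fold, with 4 false calls. No detection rate for the premature clusters is read from these values, since most of those clusters were low in level. Their median highest group mean was 0.0259 CPM in Fat1 and 0.0317 CPM in Wnk1, and only 18 and 17 of them entered the fit. Pathway and marker lists were not used, since no mm9 annotation was given.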

Additional observations from a re-analysis of the deposited data

How the results depend on the processing

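The premature shares of both genes were higher for U1 AMO than for scrambled AMO under every alternative tried for them. Because the genes were picked for this difference, its direction is no support, and the alternatives only describe its size. The difference in Fat1 was 40.6 points, and 30.7 and 50.4 within the runs. Its size depended on the U1 AMO library kept, at 29.6 without replicate 2 and 51.6 without replicate 1. Without the strongest premature cluster, an alternative chosen after seeing the data, the difference was 19.6. In Wnk1 it was 10.1 points, and 5.96 when clusters more than 1 kb upstream counted as premature, which adds the proximal 3′ end to them. Scrambled AMO minus untreated in Fat1 turned to -0.506 points within replicate number 1 (replicate block), and these groups share no run.

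The full end of Fat1 for U1 AMO against untreated had a log2 fold change of 0.08, and -0.054 with the replicate block in 6 libraries, and it ran from -0.38 (without untreated replicate 1) to 0.83 leaving out a library, with -0.33 without U1 AMO replicate 1. For scrambled AMO against untreated it ran from -1.05 to 0.34 (without untreated replicate 2), with 0.06 without scrambled AMO replicate 2. For U1 AMO against scrambled AMO it was 0.50, and it ran from 0.019 (without U1 AMO replicate 1) to 1.23 (without scrambled AMO replicate 1) leaving out a library. With the replicate block this log2 fold change was 0.55 in the 4 AMO libraries alone and 0.52 in 6 libraries. The genes were picked on this contrast, so these values only describe it. The Wnk1 cluster 26.6 kb upstream had a log2 fold change of -0.23 for U1 AMO against scrambled AMO. In this contrast it reversed to 0.052 with the replicate block in 6 libraries. Leaving out a library it ran from -0.75 to 0.25 (without scrambled AMO replicate 1), with 0.22 without U1 AMO replicate 1. The proximal end of Wnk1 for scrambled AMO against untreated ran from -0.65 to 0.22 (without untreated replicate 2). The cause was not tested.

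Over all clusters, calls for U1 AMO against scrambled AMO were 533, and 2912 without the filter, 2590 in 4 libraries alone, 3087 by DESeq2, 0 with the replicate block in 6 libraries (5676 at an unadjusted p under 0.05 in edgeR), 10769 with it in the 4 AMO libraries, and leaving out a library 0 (scrambled AMO replicate 2, 4613 at an unadjusted p under 0.05), 66 (U1 AMO replicate 2), 113 (scrambled AMO replicate 1) and 1157 (U1 AMO replicate 1). Scrambled AMO against untreated gave 0 in edgeR (10490 at an unadjusted p under 0.05), and 1279 without the filter and 2181 by DESeq2. U1 AMO against untreated gave 3916, and 7175 without the filter, 1393 in 4 libraries, 10077 by DESeq2, 0 with the replicate block in 6 libraries (16724 at an unadjusted p under 0.05), and leaving out a library from 1015 (U1 AMO replicate 2) and 1850 (untreated replicate 2) to 8760 (untreated replicate 1). Crossed numbers, added after seeing the data because untreated and AMO deviations correlated at -0.32 and -0.26, gave 0 and 4649 calls against untreated. Against untreated cells the replicate block changed no call of a full end. Clusters with under 3 reads in a library are below what its depth can separate from 0.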
